A study of Mus musculus with 6 samples.

Results

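The 8 genes described here encode receptors for antibodies, or proteins tied to them, and were followed across the B cells, T/NK cells and macrophages (MΦs) of the mouse peritoneum. They are *Fcgr1*, *Fcgr2b*, *Fcgr3*, *Fcgr4*, *Fcer1g*, *Fcer2a*, *Fcrla* and *Fcmr*. They were chosen by name and all 8 were found among the 55538 features of the count table. *Fcer1g* and *Fcgr3* were high in MΦs and low in B cells, *Fcrla* and *Fcmr* showed the opposite pattern, *Fcer2a* was scarce in B cells with no UMI in MΦs, and the inhibitory receptor *Fcgr2b* was present in both. Within B cells, *Fcgr2b* was lower in cells with a transcript of *Irf4*, a division chosen after values were seen, and the difference fell below 2-fold when cells were thinned to equal depth before they were classed. Within MΦs *Fcgr3* was lower in cells with *Irf4* than in cells with *Gata6*, but its call was lost without library 1 or library 3 and under several other settings.

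Peritoneal cells were lavaged from 8 to 12 week old *Mertk*+/+ C57BL/6J mice and *Mertk*-/- mice (MerKD in the labels, backcrossed to C57BL/6J), pooled from 3 mice per group, left to adhere for 1 h and rinsed. *Mertk* encodes MerTK, a receptor through which phagocytes take up dying cells. Each genotype gave 1 library after a change of medium alone, 1 after 2 h and 1 after 6 h with apoptotic cells (ACs), which were UV-treated Jurkat cells, a human T cell line, carrying a GFP reporter and added at 5 per peritoneal cell. The values are counts of unique molecular identifiers (UMIs), each standing for 1 captured transcript, from the 10x Genomics 5′ kit. The 6 libraries are separated by the number that ends each barcode, which was not matched to a genotype or condition here, so all values are given by library number and neither genotypes nor time points are compared. Because cells of 1 library are not replicates, no test was made and no p-value is given, and 95% intervals cover counting error only.

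Of 7760 barcodes, 7665 were kept as cells, 953 to 1608 per library, with 4225280 to 10277486 UMIs per library and a median per cell of 2783 to 5794. Between libraries, 28 barcode sequences were shared. The sample titles name the peritoneum and no cell type, and the paper reports lymphocytes beside MΦs. Here 2948 cells had at least 4 UMIs of *Cd79a* and *Cd79b* and were classed as B cells. Another 514 had at least 2 of *Cd3d*, *Cd3e* and *Nkg7* and were classed as T/NK cells. MΦs were the 2459 cells with at least 1 UMI of *Csf1r* or *Adgre1* and few or none of the lymphocyte markers. B cells with a UMI of *Bhlhe41*, *Zbtb32* or *Cd5*, genes of B-1 cells, are called marker-positive (1356 cells) and the other 1592 marker-negative. MΦs were divided into 613 with *Gata6* alone, the transcription factor of large peritoneal MΦs, 162 with *Irf4* alone, required by small peritoneal MΦs, 18 with both and 1666 with neither. The classes were checked with markers that did not define them: 7 of 8 MΦ markers were found in at least 10% of MΦs, 6 of 6 B cell markers in B cells and 5 of 5 T cell markers in T/NK cells, while 1 of 5 NK cell markers reached that share in T/NK cells. The MΦ markers summed to between 17367 and 21264 CPM (UMIs of the gene scaled to the same total of UMIs in every class) by library in MΦs, 115 to 512 CPM in B cells and 62.5 to 4914 CPM in T/NK cells. The 2 B cell classes were set apart less clearly by other markers. Those of B-1 cells summed to 453 CPM (381 to 652 by library) in marker-positive and 390 CPM (318 to 485) in marker-negative cells. Those of B-2 cells summed to 312 CPM (254 to 517) and 510 CPM (422 to 674), and both pairs of ranges overlapped. A further 153 cells met both the B and the T/NK rule, with a median of 10045 UMIs, and were left out, and 1591 met no rule.

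Fc receptors bind the constant part of antibodies and so let cells respond to antigen that antibody has marked. The activating IgG receptors of the mouse are FcγRI (*Fcgr1*, high affinity), FcγRIII (*Fcgr3*) and FcγRIV (*Fcgr4*), and they signal through the Fc receptor γ chain (*Fcer1g*), whose ITAM motif recruits the kinase Syk and which also holds the receptors at the cell surface. FcγRIIB (*Fcgr2b*) carries an inhibitory ITIM motif that recruits the phosphatase SHIP-1, restrains B cell receptor signalling and sets a threshold on MΦ activation. *Fcer2a* encodes CD23, a low-affinity IgE receptor of mature B-2 cells, *Fcmr* the IgM receptor and *Fcrla* an Fc receptor-like protein that stays inside B cells.

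Of the 8 genes, 6 lie on chromosome 1 of GRCm38 (mm10), in the GENCODE vM21 annotation. *Fcrla* (chr1:170917576-170927583, minus strand), *Fcgr2b* (chr1:170958617-170976547, minus), *Fcgr4* (chr1:171018920-171029761, plus), *Fcgr3* (chr1:171051174-171064935, minus) and *Fcer1g* (chr1:171229572-171234365, minus) follow one another, and *Fcmr* (chr1:130865669-130880791, plus) is apart from them. *Fcgr1* is at chr3:96282909-96293969 (minus) and *Fcer2a* at chr8:3681737-3694175 (minus). The extracellular parts of *Fcgr2b* and *Fcgr3* are closely related, which bears on the reading of both genes, so their longest shared coding stretch is shown. It covers coding bases 278 to 406 of 1020 in *Fcgr2b* (within chr1:170966674-170968081) and 263 to 391 of 801 in *Fcgr3* (within chr1:171054167-171057792), spans a junction between exons in both, and is identical over 129 bases.
Shared by Fcgr2b and Fcgr3: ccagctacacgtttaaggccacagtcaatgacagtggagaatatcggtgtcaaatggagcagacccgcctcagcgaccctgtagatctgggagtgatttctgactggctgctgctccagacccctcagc
The paper's methods list 98 cycles for the cDNA read but also describe a second read longer than 129 bases, so its length is not settled here. Of the 923 possible 98-base windows in the coding sequence of *Fcgr2b*, 48 also occur in *Fcgr3*. A 98-base read within such a window cannot be assigned to 1 of the genes, whereas a read longer than 129 bases could not lie wholly inside the stretch. For every other pair of the 4 IgG receptors and *Fcrla*, no 30-base word was shared.

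The starts of several members hold the letters GAGGAA, the core bound by PU.1, a transcription factor of myeloid and B cells. Both strands of the 150 bases before each RefSeq start (GRCm38.p6) were searched for it, for the TATA box (searched as TATAAA) and for the octamer element of immunoglobulin genes (searched as ATTTGCAT). No member's windows held 2 different motifs, so no matches overlap. The PU.1 core was found in 5 of the 8 members (*Fcgr1*, *Fcgr3*, *Fcgr4*, *Fcrla* and *Fcmr*) and in 14.47% of 32851 starts. A member counted if any of its starts held the motif, and *Fcgr3* and *Fcer2a* had more than 1 start. The percentages are per start, so the 2 are not in the same unit. The TATA box was found in 1 member (*Fcer2a*) and 7.574% of starts, and the octamer in none and 0.9984%. The windows of 4 members that share the motif but differ in the cells that hold their transcripts are given below, 5′ to 3′ toward the start, with the motif in capitals as TTCCTC (its other strand). They are chr3:96293970-96294119 for *Fcgr1*, chr1:171059395-171059544 for *Fcgr3*, chr1:171018776-171018925 for *Fcgr4* and chr1:170927584-170927733 for *Fcrla*.
Fcgr1: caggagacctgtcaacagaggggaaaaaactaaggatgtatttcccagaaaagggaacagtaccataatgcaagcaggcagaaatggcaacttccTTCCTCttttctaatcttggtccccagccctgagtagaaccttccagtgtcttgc
Fcgr3: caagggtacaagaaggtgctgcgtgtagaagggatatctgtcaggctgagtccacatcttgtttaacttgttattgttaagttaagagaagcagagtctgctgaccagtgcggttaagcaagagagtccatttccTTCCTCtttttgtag
Fcgr4: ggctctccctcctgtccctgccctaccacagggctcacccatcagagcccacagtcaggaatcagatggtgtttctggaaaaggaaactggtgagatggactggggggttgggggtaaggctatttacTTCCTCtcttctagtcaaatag
Fcrla: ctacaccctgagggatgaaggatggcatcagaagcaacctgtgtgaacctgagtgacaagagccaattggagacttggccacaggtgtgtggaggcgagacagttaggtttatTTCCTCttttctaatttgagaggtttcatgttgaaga
The motif ends 50 bases before the start in *Fcgr1*, 10 in *Fcgr3*, 17 in *Fcgr4* and 32 in *Fcrla*, and in all 4 it runs 5′ to 3′ as TTCCTC on the strand of the gene. Another start of *Fcgr3*, not shown, has the motif ending 1 base before it. The RefSeq start used for *Fcgr3* lies inside the longer GENCODE gene. A match describes the letters and says nothing about binding.

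*Fcer1g* was the most abundant member in MΦs, at 1023 CPM over the pooled libraries against 31.6 CPM in B cells. By library number from 1 to 6 it was 1185, 1107, 1362, 804, 821 and 827 CPM in MΦs, and 49.97, 36.1, 34.0, 16.6, 14.8 and 10.2 CPM in B cells. The MΦ values of libraries 1, 2 and 3 were above those of 4, 5 and 6, and the 2 classes did not overlap. The log2 ratio of the pooled values was 5.01 (95% interval 4.90 to 5.14).

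*Fcgr3* followed the same pattern. Its MΦ values were 666, 656, 606, 385, 319 and 339 CPM in libraries 1 to 6 (521 CPM pooled), and its B cell values were 19.99, 11.3, 12.3, 6.53, 4.63 and 0.782 CPM (11.4 CPM pooled). Libraries 1, 2 and 3 were again the higher ones, and no MΦ value came near a B cell value (log2 ratio 5.52, 5.32 to 5.73). Depth moved in part with these values: the median UMIs per MΦ were 6391, 4976, 6380.5, 4708, 3729 and 2934.5, and the summed MΦ markers were not higher in libraries 1 to 3 (17367 to 18094 CPM) than in 4 to 6 (18681 to 21264 CPM). The part of depth in the library differences was not tested.

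To compare shares of cells at equal depth, each cell was thinned at random to 1500 UMIs, which leaves out 313 shallower cells of all classes. After thinning, *Fcer1g* was detected in 73.6% of MΦs (71.8 to 75.4%) and 2.41% of B cells, and *Fcgr3* in 45.7% (43.7 to 47.7%) and 0.825%. Without thinning, 2283 of 2459 MΦs had a UMI of *Fcer1g*, with 5.63 UMIs per positive cell, and 1767 had one of *Fcgr3*, with 3.71 per positive cell. Over the pooled libraries and MΦ classes, *Fcer1g* was found in 73.4% of 1092 thinned MΦs with *Fcgr3* and 73.8% of 1297 without it. The shares were 71.8% and 72.5% in *Gata6*+ MΦs and 73.3% and 77.1% in *Irf4*+ MΦs. Association of the 2 transcripts within 1 library was not tested. *Fcer1g* UMIs numbered 1.90 per UMI of the 3 activating receptors together, from 1.64 to 2.51 over the libraries.

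**Figure D1:**
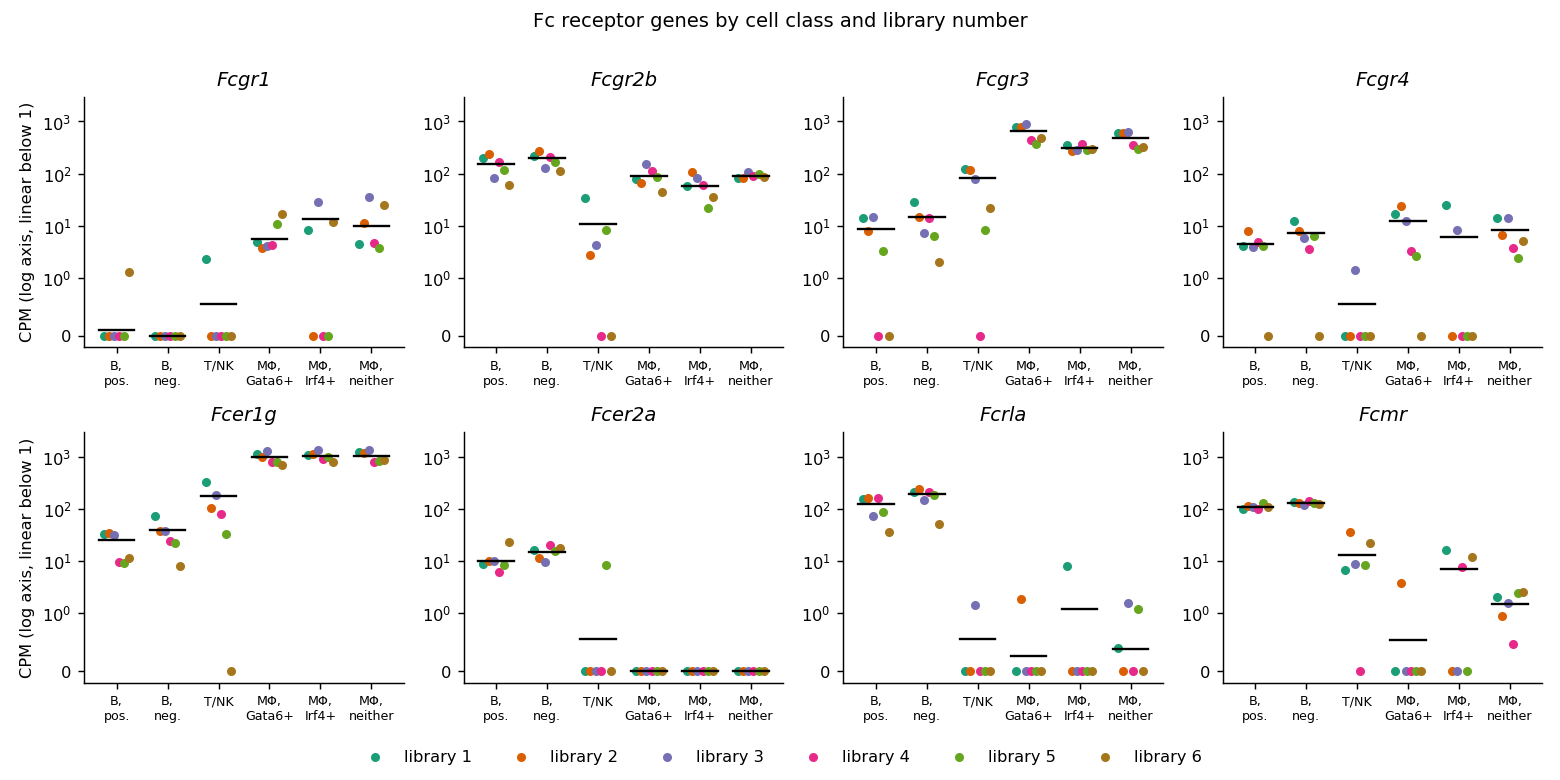
Level of each of the 8 genes in CPM (vertical axes, logarithmic above 1 CPM and linear below it, the same scale for every gene) in 6 classes of cells: marker-positive B (B, pos.), marker-negative B (B, neg.), T/NK cells, and MΦs with Gata6, with Irf4 or with neither. Each point is 1 of the 6 libraries and the black line is the pooled value; Fcgr3 and Fcer1g are high in the 3 MΦ classes, Fcrla and Fcmr in the 2 B cell classes, and Fcgr2b in both.

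*Fcrla* and *Fcmr* were transcripts of B cells. *Fcrla* was at 182, 204, 98.5, 188, 130 and 42.3 CPM in the B cells of libraries 1 to 6 (156 CPM pooled), and at most 0.867 CPM in the MΦs of any library (5 UMIs in all, 0.398 CPM pooled). Its B cell level was lowest in libraries 6 and 3, yet every B cell value was far above every MΦ value (log2 ratio of MΦs to B cells −8.61, −10.24 to −7.39). *Fcmr* was at 116, 120, 114, 119, 128 and 117 CPM in the same B cells (119 CPM pooled) and between 0.621 and 4.09 CPM in MΦs (1.59 CPM pooled, log2 ratio −6.22, −6.93 to −5.59). *Fcmr* thus stayed within a narrow range over libraries in which *Fcrla* was low. Of the few UMIs in MΦs, 13 of 20 of *Fcmr* and 3 of 5 of *Fcrla* came from the 52 MΦs that held 1 or 2 UMIs of *Cd79a* and *Cd79b*.

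*Fcer2a* was less abundant, at 12.2, 10.7, 10.1, 12.7, 11.6 and 21.1 CPM in B cells (12.1 CPM pooled), with the highest value in library 6. No MΦ held a UMI of it: 0 of 2459 cells, which with a floor of 3 allows a share of cells with a UMI of up to 0.122%, for counting error only. Set against a floor of 3 UMIs over all MΦs, the pooled level was at least 50.7-fold higher in B cells. After thinning, 2.34% of B cells had a UMI of *Fcer2a*, 21.2% one of *Fcrla* and 16.6% one of *Fcmr*. Of the B cells deep enough for thinning, the 152 with a UMI of *Fcer2a* at full depth also differed from the other 2758 in markers of B-2 cells. These markers were read after thinning: *Ighd* (IgD) was found in 35.5% against 16.6%, *Satb1* in 30.9% against 16.8% and *Ccr7* in 16.4% against 9.57%. The B-2 marker *Cr2*, a complement receptor, was at 2.63% against 1.12%, with overlapping intervals. The 5 B-1 markers had overlapping intervals, among them the integrin *Itgb1* at 12.5% against 19.6%.

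*Fcgr2b*, the inhibitory receptor, was the one IgG receptor abundant in both lineages. In B cells it was at 206, 254, 98.2, 186, 139 and 79.8 CPM in libraries 1 to 6 (175 CPM pooled), and in MΦs at 80.4, 77.6, 109, 94.8, 92.8 and 67.1 CPM (86.3 CPM pooled). It was lower in MΦs in 5 of 6 libraries and higher in library 3, and the ranges overlapped. The log2 ratio of MΦs to B cells was −1.02 (−1.12 to −0.92). Thinned shares were 10.1% of MΦs and 22.9% of B cells. In MΦs, *Fcgr3* gave 6.04 UMIs per UMI of *Fcgr2b* (3.44 to 8.45 over libraries), and in B cells 0.0648, so the ratio of the activating to the inhibitory low-affinity receptor differed more between the lineages than *Fcgr2b* itself did. In B cells without a MΦ marker 13 UMIs of *Fcgr3* and 3049 of *Fcgr2b* were counted. How reads in the shared stretch above were counted was not analysed here.

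The high-affinity receptor *Fcgr1* was scarce. It was at 4.64, 8.55, 26.9, 4.35, 5.65 and 20.5 CPM in MΦs (110 UMIs, 8.76 CPM pooled), highest in libraries 3 and 6, and 1 UMI was found in all B cells. Libraries 3 and 6 also had the largest shares of MΦs with a UMI of *Irf4* (20.2% and 19.4%, against 2.24 to 4.21% in the others). Of the 110 UMIs of *Fcgr1*, 11 were in *Irf4*+ MΦs, 21 in *Gata6*+ MΦs and 78 in MΦs with neither factor. Per UMI of the class the pooled level was highest in *Irf4*+ MΦs, at 13.2 CPM (6.59 to 23.6). It was 9.89 CPM (7.81 to 12.3) with neither factor, an overlapping interval, and 5.65 CPM in *Gata6*+ MΦs. Within libraries 3 and 6 it was 28.8 and 11.8 CPM with *Irf4*, below the 35.5 and 24.6 CPM with neither factor. The part of *Irf4*+ MΦs in the library differences of *Fcgr1* was not tested. *Fcgr4* was at 15.4, 12.2, 13.9, 3.42, 2.42 and 3.27 CPM in MΦs (9.31 CPM pooled), higher in libraries 1 to 3 as *Fcgr3* and *Fcer1g* were, and at 7.60, 7.86, 4.49, 4.24, 5.09 and 0 CPM in B cells (5.68 CPM pooled). The 2 classes overlapped for *Fcgr4*, with a log2 ratio of 0.71 (0.32 to 1.11) and thinned shares of 1.13% and 1.03%.

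A gene was called when its pooled CPM differed at least 2-fold and the values of the 6 libraries did not overlap, among features with a mean of at least 5 CPM over both classes. Between MΦs and B cells 7 members reached that minimum, and 2 were called higher in MΦs (*Fcer1g*, *Fcgr3*) and 3 lower (*Fcrla*, *Fcmr*, *Fcer2a*). Over all 9401 features tested, 16.2% were called higher and 18.7% lower. *Fcgr2b* and *Fcgr4* were not called, and *Fcgr1* was below the minimum except when library 1 or library 4 was left out, where it was called higher.

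B cells that carried MΦ markers accounted for most of the *Fcgr3* counted in B cells. Of 210 *Fcgr3* UMIs in B cells, 197 were in the 117 cells with a UMI of *Csf1r* or *Adgre1* (median 8168 UMIs, 196 CPM), and 13 were in the other 2831 cells (median 5296 UMIs, 0.744 CPM, 0.396 to 1.27). *Fcer1g* fell from 394 CPM to 10.8 CPM between the same cells but kept 188 UMIs, in 113 cells without a MΦ marker. *Fcgr2b* stood at 190 and 174 CPM, and 3049 of its 3240 UMIs in B cells were in cells without a MΦ marker. Whether cells without such a UMI were free of MΦ RNA was not tested. *Fcrla* was at 118 and 158 CPM and *Fcmr* at 60.6 and 122 CPM, both lower in the cells with a MΦ marker.

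*Fcgr4* differed from *Fcgr3* in this respect. Of its 105 UMIs in B cells, 93 were in 82 cells without a MΦ marker (5.32 CPM, 4.29 to 6.52), with 31, 26, 15, 11, 10 and 0 UMIs in libraries 1 to 6. It was thus found in 5 of 6 libraries at no more than 3 UMIs per cell. MΦs held 6548 UMIs of *Fcgr3* and 117 of *Fcgr4*, whereas these B cells held 13 and 93, so the 2 genes were in the opposite order. In the 485 T/NK cells without a MΦ marker no UMI of *Fcgr4* was seen (0 CPM, with an upper limit of 2.43 CPM, median 2742 UMIs). At equal depth the shares of cells with a UMI could not be separated, since the thinned share in these B cells was 1.00% (0.667 to 1.45%) and the upper limit in the T/NK cells 0.783%. Where in the gene these reads lie was not analysed here.

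**Figure D2:**
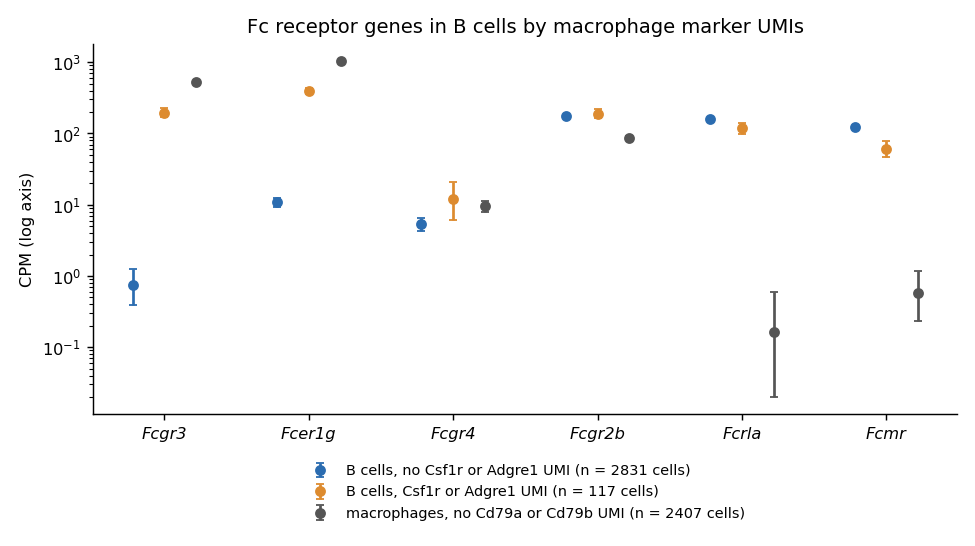
Level in CPM (vertical axis, logarithmic) of 6 genes in B cells without a UMI of Csf1r or Adgre1 (2831 cells), B cells with one (117 cells) and MΦs without a UMI of Cd79a or Cd79b (2407 cells). Points are pooled values and bars 95% Poisson intervals, which cover counting error only; Fcgr3 is at 0.744 CPM in the first class and 196 CPM in the second, while Fcgr4 is at 5.32 and 11.9 CPM.

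In T/NK cells the members were low or lay mostly in cells with markers of another lineage, apart from *Fcer1g* in a few cells with *Nkg7*. *Fcgr3* was at 83.0 CPM and *Fcer1g* at 180 CPM over the 514 cells, but their library values ran from 0 to 120 CPM and from 0 to 333 CPM. In T cells with no *Nkg7*, 98 of 104 *Fcgr3* UMIs were in 18 of 405 cells, those with a UMI of *Csf1r* or *Adgre1*. *Fcmr*, at 23 UMIs in those 405 cells, kept 2 UMIs in the 356 that had no UMI of a MΦ or B cell marker, where *Fcgr2b*, *Fcrla* and *Fcer2a* kept none. *Fcer1g* was different in cells with *Nkg7* and no *Cd3d* or *Cd3e*, the pattern of NK cells: in the 12 such cells without a MΦ marker, 11 held it (45 UMIs, 1104 CPM, 805 to 1477), an interval that holds the pooled MΦ level, beside 1 UMI of *Fcgr3*. These are few cells, from 4 libraries before the MΦ marker was applied.

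The order of the classes by *Fcgr3* level was *Gata6*+ MΦs (655 CPM pooled, 377 to 902 by library), MΦs with neither factor (481 CPM, 295 to 617), *Irf4*+ MΦs (310 CPM, 273 to 373), T/NK cells (83.0 CPM), marker-negative B cells (14.9 CPM) and marker-positive B cells (8.70 CPM). Neighbours in this order overlapped by library, except *Irf4*+ MΦs and T/NK cells. Without the cells that held a UMI of *Csf1r* or *Adgre1*, *Fcgr3* was at 4.61 CPM in T/NK cells, 0.677 CPM in marker-negative and 0.792 CPM in marker-positive B cells, so the last 2 changed places, with overlapping intervals. For *Fcer1g* the 3 MΦ classes overlapped throughout, at 1040 CPM with neither factor, 1036 CPM with *Irf4* and 979 CPM with *Gata6*. For *Fcgr2b* the order was marker-negative B cells (202 CPM), marker-positive B cells (155 CPM), MΦs with neither factor (89.0 CPM) or *Gata6* (88.9 CPM), *Irf4*+ MΦs (58.8 CPM) and T/NK cells (11 CPM), again with overlap between neighbours.

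Among MΦs, *Fcgr3* was lower with *Irf4* than with *Gata6* while *Fcer1g* was not. *Fcgr3* was at 788, 789, 902, 448, 377 and 480 CPM in *Gata6*+ MΦs of libraries 1 to 6, and at 352, 273, 284, 373, 281 and 292 CPM in *Irf4*+ MΦs. It was lower in *Irf4*+ MΦs in each library, and the highest of those values lay just under the lowest *Gata6*+ value (log2 ratio −1.08, −1.27 to −0.90). How many of all features kept the same direction in all 6 libraries was not counted for these 2 classes. The *Irf4*+ values come from 17, 5, 33, 21, 13 and 73 cells, so library 2 rests on 10 UMIs. *Fcer1g* was at 1116, 1009, 1321, 783, 786 and 712 CPM with *Gata6* and 1065, 1120, 1331, 899, 995 and 805 CPM with *Irf4* (log2 ratio 0.08, −0.03 to 0.19). *Fcer1g* thus gave 1.45 UMIs per UMI of the 3 activating receptors in *Gata6*+ MΦs (1.24 to 2.01 by library) and 3.15 in *Irf4*+ MΦs (2.41 to 4.15), with no overlap.

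Of the other members in these MΦs, *Fcgr2b* had a log2 ratio of −0.60 (−1.06 to −0.16, lower in 5 of 6 libraries), *Fcgr1* of 1.22 (0.02 to 2.34, on 11 and 21 UMIs) and *Fcgr4* of −1.01 with an interval that spans 0 (−2.70 to 0.31). Libraries 3 and 6, where *Fcgr1* was highest in MΦs, gave 33 and 73 of the 162 *Irf4*+ cells. They gave 32 and 52 of the 613 *Gata6*+ cells, and their part in the pooled *Fcgr1* ratio was not tested. Of 5 members tested, 1 (*Fcgr3*) was called lower and none higher, where 0.759% and 0.702% of 8827 features were. The call of *Fcgr3* was lost without library 1 (log2 ratio −0.91) and without library 3 (−0.99), where the fold fell below 2. It was also lost with higher marker thresholds (−0.91), and, through overlap of the library values, with a minimum of 1000 genes per cell (−1.07) and with cells of mixed markers left out (−1.09). The MΦ markers as a list were at 21441 CPM in *Gata6*+ and 13880 CPM in *Irf4*+ MΦs, and B cell markers at 112 and 154 CPM. Their part in the difference was not tested. In *Irf4*+ MΦs without any *Cd79a* or *Cd79b* UMI *Fcgr3* was at 310 CPM, against 660 CPM in the same kind of *Gata6*+ MΦs.

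**Figure D3:**
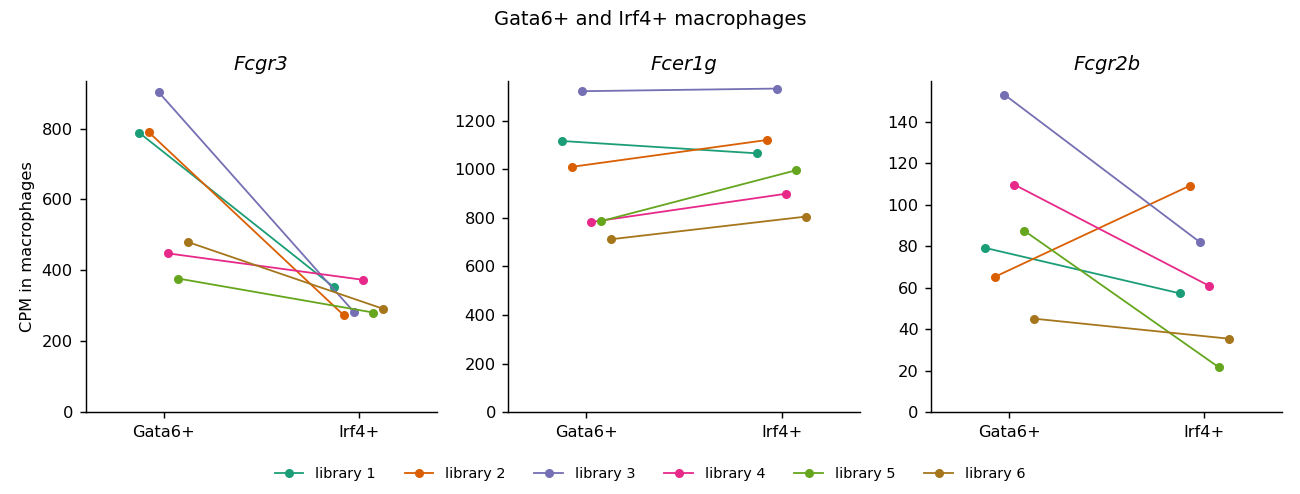
Level of Fcgr3, Fcer1g and Fcgr2b in CPM (vertical axes, linear from 0) in MΦs with Gata6 alone and with Irf4 alone. Each line joins the 2 classes in 1 library. No intervals are drawn, and the values with Irf4 rest on 5 to 73 cells per library. With Irf4, Fcgr3 is lower in all 6 libraries, between 273 and 373 CPM, while Fcer1g is higher in 5 and Fcgr2b lower in 5.

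B cells were first divided by the B-1 genes. *Fcgr2b* was at 195, 240, 81.3, 168, 119 and 60.2 CPM in marker-positive B cells of libraries 1 to 6 and at 222, 268, 130, 207, 164 and 111 CPM in marker-negative ones, lower in 6 of 6 but by less than 2-fold (log2 ratio −0.38, −0.48 to −0.28). *Fcrla* was at 159, 162, 72.3, 164, 88.2 and 35.8 CPM against 214, 246, 148, 217, 182 and 52.3 CPM, also lower in 6 of 6 (−0.68, −0.78 to −0.57). Of all 9271 features tested, 8.01% were lower and 8.63% higher in all 6 libraries, at any fold. *Fcmr* (−0.27), *Fcer2a* (−0.60), *Fcgr3* (−0.78), *Fcer1g* (−0.68) and *Fcgr4* (−0.66) were lower in 4 or 5 libraries. The value of *Fcgr3* turned without the B cells that held a MΦ marker, at 0.792 CPM in marker-positive and 0.677 CPM in marker-negative cells on 8 and 5 UMIs. None of the 7 members tested was called in either direction, where 0.0216% of features were called higher and 0.14% lower. Marker-positive cells were the deeper ones (median 6947 against 4282 UMIs), and *Fcgr2b* UMIs per cell were 1.21 and 1.01, in the other order than its CPM.

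Of the 3 members above 100 CPM in pooled B cells, *Fcgr2b* and *Fcrla* were lowest in libraries 6 and 3, which also had the largest shares of B cells with an *Irf4* UMI (71.1% and 59.4%, against 31.9 to 48.1% in the others). *Irf4* encodes a transcription factor that rises when B cells are activated. The B cells were therefore divided by it, a choice made after these values were seen. *Fcgr2b* was at 116, 143, 61.9, 104, 78.0 and 57.7 CPM in the 1281 B cells with an *Irf4* UMI and at 300, 349, 201, 249, 231 and 176 CPM in the 1667 without one. The highest value with *Irf4* was below the lowest without it, and each library showed the same direction (94.8 and 279 CPM pooled, log2 ratio −1.56, −1.67 to −1.45).

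*Fcrla* was at 102, 121, 51.2, 95.5, 68.0 and 26.9 CPM with *Irf4* and at 265, 275, 232, 260, 223 and 109 CPM without it (log2 ratio −1.67, −1.79 to −1.55). It was lower in 6 of 6 libraries, but the ranges crossed, since library 2 with *Irf4* was above library 6 without it. How many of all features kept the same direction in all 6 libraries was not counted for this division. *Fcmr* was at 100, 104, 109, 125, 141 and 111 CPM with *Irf4* and 133, 134, 128, 115, 108 and 142 CPM without it (−0.17, −0.30 to −0.05) and was lower with *Irf4* in 4 libraries and higher in 2. *Fcer2a* (−0.19) and *Fcer1g* (−0.06) were higher in 3 libraries and lower in 3, and *Fcgr4* was at 3.36 and 8.67 CPM (−1.37, −1.997 to −0.76) on 35 and 70 UMIs.

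Of 7 members tested in this division, 1 (*Fcgr2b*) was called lower and none higher, where 3.18% and 2.68% of 9275 features were. Without library 2 *Fcrla* was called too, and without library 6 both *Fcrla* and *Fcgr4*. Cells with *Irf4* were deeper (median 7467 against 4278 UMIs). *Fcgr2b* and *Fcrla* were lower in them also per cell, at 0.771 against 1.35 and 0.649 against 1.23 UMIs, whereas *Fcmr* was higher per cell, at 0.914 against 0.614 UMIs. In thinned cells *Fcgr2b* was found in 11.9% against 31.5%, *Fcrla* in 8.85% against 30.8% and *Fcmr* in 14.8% against 17.9%. When cells were thinned before they were classed, the log2 ratios were −0.94 for *Fcgr2b* and −0.91 for *Fcrla*, and neither was called. The 6 B cell markers together were at 1230 CPM with *Irf4* and 2278 CPM without it, and their part in these differences was not tested. Over all B cells pooled, *Fcrla* was found in 33.0% of thinned cells with *Fcgr2b* and 17.7% of those without, and *Fcmr* in 13.2% and 17.6%. These shares pool libraries and *Irf4* classes in which *Fcgr2b* and *Fcrla* are low together. Association within 1 library or 1 *Irf4* class was not tested.

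**Figure D4:**
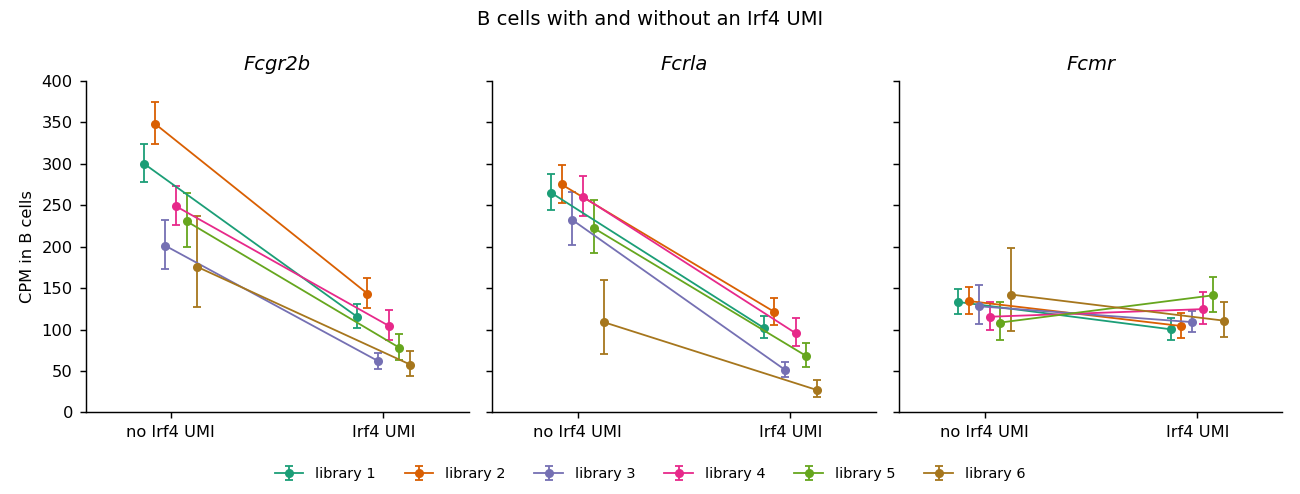
Level of Fcgr2b, Fcrla and Fcmr in CPM (vertical axes, linear from 0) in B cells without and with a UMI of Irf4; each line joins the 2 classes in 1 library and bars are 95% Poisson intervals. With Irf4, Fcgr2b and Fcrla are lower in all 6 libraries, and Fcmr is lower in 4 and higher in 2.

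The other genes of the pathway were counted by list between MΦs and B cells, where 16.2% of all features were called higher and 18.7% lower. Of 11 other Fc and Fc-like receptors, 5 were tested and 2 were called higher in MΦs, the neonatal receptor *Fcgrt* (18.9 against 1.08 CPM) and *Fcrls* (11.2 against 0.379 CPM), and 2 lower, *Fcrl1* (2.23 against 64.1 CPM) and *Fcrl5* (0.239 against 52.8 CPM), which are receptors of B cells. The IgE receptor chains *Fcer1a* and *Ms4a2*, which *Fcer1g* joins in mast cells and basophils, had no UMI in either class. *Fcrls* was also at 75 UMIs in *Irf4*+ and 0 in *Gata6*+ MΦs, at least 111-fold higher against a floor of 3 UMIs, and was not called because 1 library had none in either class.

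Of 15 ITAM adaptors and activating signalling genes, 13 were tested, with 3 called higher in MΦs and 3 lower, near the 16.2% and 18.7% over all features. The higher ones were *Tyrobp* (DAP12, 1532 against 169 CPM), an adaptor with an ITAM like that of *Fcer1g*, the adaptor *Lcp2* (176 against 4.002 CPM) and the kinase *Fgr* (log2 ratio 1.03), and the lower ones the phospholipases *Plcg1* (−1.13) and *Plcg2* (−1.38) and the exchange factor *Vav1* (−1.09). *Syk* itself was not called. Of 9 inhibitory phosphatases and adaptors, 2 were called higher, *Dok2* (log2 ratio 3.78) and *Cbl* (2.17), and 3 lower, *Dok3* (−2.14), *Csk* (−1.92) and *Inpp5d* (−1.12), which encodes SHIP-1, the partner of *Fcgr2b*. Over all features, 16.2% were called higher and 18.7% lower. *Inpp5d* was at 78.3 CPM in MΦs and 170 CPM in B cells, the same order as *Fcgr2b*.

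All 7 other inhibitory receptors were called. *Cd300a* (log2 ratio 5.16), *Sirpa* (2.88), *Lilrb4a* (2.31) and *Pirb* (2.29) were higher in MΦs, and the B cell receptors *Cd22* (−7.28), *Siglecg* (−5.50) and *Cd72* (−5.48) were lower. The median log2 ratio (with 1 CPM added) was −1.01 for the 7 members tested, −0.91 for other Fc receptors, −0.14 for activating genes, −0.02 for phosphatases and adaptors and 2.24 for inhibitory receptors, beside −0.16 over all features. None of these 4 lists had a call between the B cell classes or between *Irf4*+ and *Gata6*+ MΦs, where *Lat2* was nearest to one (270 against 99.9 CPM, higher in 6 of 6 libraries). In the division of B cells by *Irf4*, chosen after values were seen, 2 of 13 activating genes tested were called lower, *Syk* (log2 ratio −1.34) and *Blnk* (−1.19). Of 9 phosphatases and adaptors, 1 was called lower, *Cblb* (−1.47), and of 6 inhibitory receptors tested, 1 was called higher, *Lilrb4a* (1.61). Over all features, 3.18% were called lower and 2.68% higher.

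The genes most like each member were found by Pearson's r of log2 CPM (with 1 CPM added). It was taken over 30 points, 5 classes in each of 6 libraries, among 5552 features with a mean of at least 20 CPM. The points share libraries and fall into lineages, so r mostly ranks genes by the class that holds them. Among the genes closest to *Fcgr3* were *Gda* and *Ier3* (r = 0.96 each), and *Fcer1g* was closest to *App*, *Pltp* and *Cxcl2* (0.96 each). *Fcrla* was closest to 3 immunoglobulin κ variable genes, *Igkv1-110* (0.98), *Igkv12-46* (0.97) and *Igkv12-44* (0.97), and *Fcmr* to *Iglc2* (0.98), *Igkc* (0.96) and *H2-Eb2* (0.95). *Fcgr2b* had less close partners, *Unc93b1* and *Sypl* (0.89 each) and *Serp1* (0.87). *Fcgr1*, *Fcgr4* and *Fcer2a* were below the minimum level.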

How the data were processed

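Peritoneal cells of 6 groups (*Mertk*+/+ and *Mertk*-/-, each as control or with ACs for 2 h or 6 h) were sequenced with 1 library per group. The authors aligned reads to the human and mouse genomes (hg38, mm10) with STAR through Cell Ranger (2.2 in the submitters' processing notes; the paper names another version) and deposited raw UMI counts per gene and barcode in a single table. The annotation release is not given in the sources used here. No normalization, removal of free RNA or doublet calling had been applied to the deposited counts. Library numbers were not matched to samples, and all are pooled or shown by number. No test was made, in place of the study's single-cell test.

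Barcodes were kept with 500 genes or more, log genes divided by log UMIs not under 0.8, and no more than 10% mitochondrial UMIs (95 were left out). Doublets were not called; cells meeting the B and the T/NK rule together were left out, MΦs were allowed at most 2 UMIs of *Cd79a* and *Cd79b* and 1 of *Cd3d*, *Cd3e* and *Nkg7*, and stricter classes were an alternative. Counts were summed over a class, divided by its UMIs (CPM) and given exact Poisson intervals, with exact conditional intervals for ratios and Clopper-Pearson intervals for shares (95%). A count of 0 was given a floor of 3 UMIs. The named genes were the 8 members, and up to 4 called genes per list by size of ratio, and the others were named after their values were seen. The members, lists and classes were chosen with earlier results of these data known. Some genes that these rules name are not reported here. Scripts were tested on simulated data. Python 3.11.15, numpy 2.4.6, pandas 2.3.3, scipy 1.17.1 and matplotlib 3.10.9 were used.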

Additional observations from a re-analysis of the deposited data

Results flagged for a closer look

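Members of the family were also found in cells that no class took in. Of 1591 cells without a class, 785 had no UMI of any gene that defines one (median 2474 UMIs, 362 of them in library 6). In these, *Fcer1g* was at 731 CPM, *Fcgr3* at 182 CPM, *Fcgr2b* at 49.3 CPM and *Fcgr1* at 13.0 CPM, each above its level in T cells with no *Nkg7* and no MΦ or B cell marker (19.6 CPM for *Fcer1g*, 5.87 CPM for *Fcgr3* and 0 for the other 2). *Fcer1g* was between 484 and 1002 CPM in the 6 libraries. *Fcgr1* rested on 30 UMIs, of which library 6 gave 19, library 3 gave 9, library 4 gave 2 and the others none, and without library 6 it was at 7.39 CPM (3.69 to 13.2), an alternative chosen after seeing the data. Of the marker genes checked in these cells, the most widely detected were *Cd74* (74.8% of cells), *Lyz2* (71.7%), *Cd9* (64.5%), *H2-Ab1* (63.7%) and *Cebpb* (55.9%). Other markers of small peritoneal MΦs were found in fewer cells, *Retnla* in 43.2%, *Itgax* in 22.0%, *Fcrls* in 10.7% and *Ccr2* in 9.30%.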

How the results depend on the processing

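The 5 members called between MΦs and B cells were 4 to 6 under the alternatives and 5 to 6 with 1 library left out: *Fcer2a* was not called at a minimum of 20 CPM, *Fcgr1* was called with no minimum, and *Fcgr2b* was called lower with cells thinned before classing (log2 ratio −1.79). Between the marker-positive and marker-negative B cells 0 members were called under each alternative. The call of *Fcgr3* in *Irf4*+ against *Gata6*+ MΦs became 0 with a minimum of 1000 genes, strict classes, higher marker thresholds or a fold of at least 4, and 0 to 1 with 1 library left out, with log2 ratios from −1.66 (thinned) to −0.91. The division of B cells by *Irf4*, chosen after seeing the data, gave 2 calls with higher marker thresholds, 0 with thinned cells or a fold of at least 4, and 1 to 3 with 1 library left out. Of 40 member levels, 23 stayed within the main counting interval with higher marker thresholds, 10 with cells thinned before classing, 18 with the median of the libraries, and 29 to 38 with 1 library left out. The causes were not tested.

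Features called between MΦs and B cells (1523 higher, 1754 lower) were 1010 and 859 at a minimum of 20 CPM, 956 and 758 at 4-fold, and 1152 were lower with thinned cells. Between the B cell classes (2 and 13) higher ones were 4 with strict classes or higher thresholds, 5 thinned, 14 with no minimum and up to 8 with 1 library left out, and lower ones 5 with 1000 genes or higher thresholds, 52 thinned, 4 at 20 CPM, 2 at 4-fold and up to 23. Between *Irf4*+ and *Gata6*+ MΦs (62 and 67) they were 30 and 42 with higher thresholds, 34 and 29 at 4-fold, 8 higher thinned, and up to 134 and 150 with 1 library left out. In the *Irf4* division of B cells (249 and 295) they were 391 and 192 with higher thresholds, 52 and 142 thinned, 31 and 16 at 4-fold, 177 lower at 20 CPM, and up to 529 higher. *Fcgr1*, *Fcgr4* and *Fcer2a* rest on 110 to 224 UMIs in the class where they are highest, which limits their precision. Classes of cells were set side by side within each library, as counts of libraries in each direction, and no paired test was run on them. Genotypes and conditions, with 1 sample each, could not be paired.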
